A study of Mus musculus with 42 samples.

Results

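Of the HOX binding events mapped by chromatin immunoprecipitation sequencing (ChIP-seq) in mouse cells on the way to motor neurons, those at the promoters of protein-coding genes were analysed here. The regions were chosen by measured values. In each of the 7 event lists of full-length HOX factors at day 3, events were ranked by the estimated count of ChIP reads assigned to them, and the first 10000 were kept. Events of chromosomes 1 to 19 and X within 1 kb of an annotated start site of a protein-coding transcript were then pooled over the lists and merged where they lay within 100 bp of each other. This gave 943 promoter regions of 32209 merged regions in all, from 1927 of 69918 top events. The regions lay within 1 kb of 865 of 21755 protein-coding genes, and 52 of them (5.51%) lay within 1 kb of 2 genes. In this text a region with a factor is one that holds a top event of it, and a full list is every event of a list.

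The study asked how HOX factors that share much of their DNA-binding domain bind different sites. Mouse embryonic stem cell lines, grown as embryoid bodies (EBs), each carried 1 Hox cDNA as a single copy at the HPRT locus under a promoter that responds to doxycycline (Dox, 3 µg/mL), so the factors are induced transgenes. The day 3 groups were iHoxc6, iHoxc8, iHoxc9, iHoxc10, iHoxa9, iHoxd9 and iHoxc13 cells after 24 h of Dox, each with 1 µM retinoic acid and 0.5 µM of the smoothened agonist SAG from day 0. The HOXC13 cDNA was human. Lines for 4 chimeras of HOXC10 and HOXC13 (HOXC13:C10.1, HOXC13:C10.2, HOXC10:C13.1 and HOXC10:C13.2, with 2 libraries each) had the same treatment. HOXC6, HOXC9 and HOXC10 were also mapped at day 4 after 48 h of Dox, and HOXC6 and HOXC9 in EBs that had 12 h of Dox and neither patterning signal. The cofactors were mapped with 1 library per line, MEIS in V5 lines of iHoxc6, iHoxc9 and iHoxc10 at day 3 and PBX in the iHoxc9 and iHoxc10 lines at day 4. Most HOX libraries came from Flag lines, but 1 of the 3 HOXC10 libraries of day 3 came from a V5 line and the second libraries of HOXA9, HOXD9 and HOXC13 from HA lines, so these lists pool 2 lines each. Library depth was 5.04 to 32.88 M reads, of which the caller assigned a fraction of 0.008 to 0.527 to signal. Every list pools its libraries, so no value has a spread between differentiations. All comparisons below are descriptions with 95% Wilson intervals, which cover counting error only, and no difference was tested. Events of several factors at 1 site, and sites near 1 gene, are not independent of each other. The files hold no expression, so the identity of the cells was not checked against marker genes.

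Hox genes lie in 4 clusters, and their order along the chromosome matches the order of the body levels at which they act, with the paralogue groups of low number acting towards the head. HOX proteins bind short AT-rich sequences through the homeodomain. The TALE proteins PBX and MEIS are homeodomain cofactors that bind DNA beside many HOX proteins. Promoters of vertebrate genes are often rich in GC and CpG, and AT-rich sequences are then less frequent there.

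The first set of sequences shows events at regions with a top event of all 7 factors, because these are the promoters common to every day 3 list. Each line gives 101 bases of the plus strand of GRCm38.p6 (mm10) centred on the event of the factor with the best rank there. Capitals mark strings searched on both strands, which were the homeodomain core TAAT, then TTTAT and then TTTAC (strings of posterior HOX factors), the joint PBX and HOX string TGATTTAT, which contains TTTAT, and the MEIS string TGACAG. The E-box CAGCTG was searched as well but is not marked, and none of the windows shown holds it. Matches can share letters, as where TAAT runs into TTTAT. A match describes the letters and is not a proven site.
Hoxc4 (chr15:103035316-103035416): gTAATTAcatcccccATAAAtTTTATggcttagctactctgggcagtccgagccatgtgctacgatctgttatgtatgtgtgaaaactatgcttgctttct
Hoxc5 (chr15:103014625-103014725): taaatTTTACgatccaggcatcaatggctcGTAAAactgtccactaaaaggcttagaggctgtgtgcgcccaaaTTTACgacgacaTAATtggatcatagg
Hoxa4 (chr6:52190914-52191014): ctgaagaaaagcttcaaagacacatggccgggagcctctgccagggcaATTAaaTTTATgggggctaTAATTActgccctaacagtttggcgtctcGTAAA
Prdm13 (chr4:21686031-21686131): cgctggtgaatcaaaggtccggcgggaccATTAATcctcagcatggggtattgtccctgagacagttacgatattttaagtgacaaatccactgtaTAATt
Irx1 (chr13:71961161-71961261): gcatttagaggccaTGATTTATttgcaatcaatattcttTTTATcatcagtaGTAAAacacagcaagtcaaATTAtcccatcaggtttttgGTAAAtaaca
Spag9 (chr11:94045117-94045217): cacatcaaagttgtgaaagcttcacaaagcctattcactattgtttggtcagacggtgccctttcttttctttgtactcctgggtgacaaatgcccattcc
The Hoxc4, Hoxc5 and Hoxa4 events lay in introns 971, 860 and 789 bp downstream of the nearest start site, the Irx1 event lay 495 bp upstream of the nearest start site, in an annotated intron, and the Prdm13 event lay 118 bp upstream and outside genes. The Irx1 window held TGATTTAT and its TTTAT, and also TTTAC with TAAT. The Spag9 window, 802 bp inside its gene, held none of the 6 strings.

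The second set shows the 3 promoter events with the most HOXC13 reads among the regions with no event of the other 6 full lists, because HOXC13 supplied most regions of that kind. All held TTTAT, and the Mttp window held TTTAC as well.
Mttp (chr3:138130424-138130524): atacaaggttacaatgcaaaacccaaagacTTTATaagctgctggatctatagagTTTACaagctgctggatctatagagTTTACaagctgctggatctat
Krt83 (chr15:101491549-101491649): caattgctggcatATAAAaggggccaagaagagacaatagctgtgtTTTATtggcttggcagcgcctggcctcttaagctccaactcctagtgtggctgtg
Hoxa11 (chr6:52244856-52244956): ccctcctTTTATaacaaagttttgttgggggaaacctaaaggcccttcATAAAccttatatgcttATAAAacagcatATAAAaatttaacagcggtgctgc
The third set shows 2 events that, of the 7 day 3 lists, were in that of HOXD9 only. The window 87 bp upstream of Rack1, which encodes a ribosome-associated scaffold protein, held no searched string, while the window between Tom1l2 and Drc3 held TAAT as well as TTTAT and also TTTAC.
Rack1 (chr11:48800223-48800323): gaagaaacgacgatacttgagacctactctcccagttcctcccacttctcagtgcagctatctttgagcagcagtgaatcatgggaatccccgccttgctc
Tom1l2 and Drc3 (chr11:60353085-60353185): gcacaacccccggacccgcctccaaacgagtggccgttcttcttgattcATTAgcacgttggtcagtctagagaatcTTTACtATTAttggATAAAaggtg

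Promoters took a small share of the top events, and the share differed between factors. HOXD9 had the highest, 5.57% (5.14 to 6.04%, 556 of 9980 events), followed by HOXA9 with 3.28% (2.95 to 3.65%) and HOXC10 with 2.99% (2.68 to 3.34%). HOXC6 had 2.24% (1.97 to 2.55%), HOXC13 1.96% (1.70 to 2.25%), HOXC8 1.83% (1.59 to 2.11%) and HOXC9 1.42% (1.21 to 1.67%). The intervals of HOXA9 and HOXC10 overlapped, as did those of HOXC6, HOXC13 and HOXC8, and those of HOXC8 and HOXC9 touched as well. Over the 7 lists the share was 2.76% (2.64 to 2.88%). For scale, 2.43% of all bases of these chromosomes lie within 1 kb of the same start sites, so HOXC9 was at 0.584 times and HOXD9 at 2.29 times the share of bases. The HOX9 paralogues HOXA9, HOXC9 and HOXD9 therefore held the highest 2 shares and the lowest. The share depends on the annotation. It was 1.59% with 1 start per gene and 3.99% with the starts of all transcripts of the same genes, and with both HOXD9 was highest (3.69% and 7.08%) and HOXC9 lowest (0.730% and 2.40%).

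**Figure D1:**
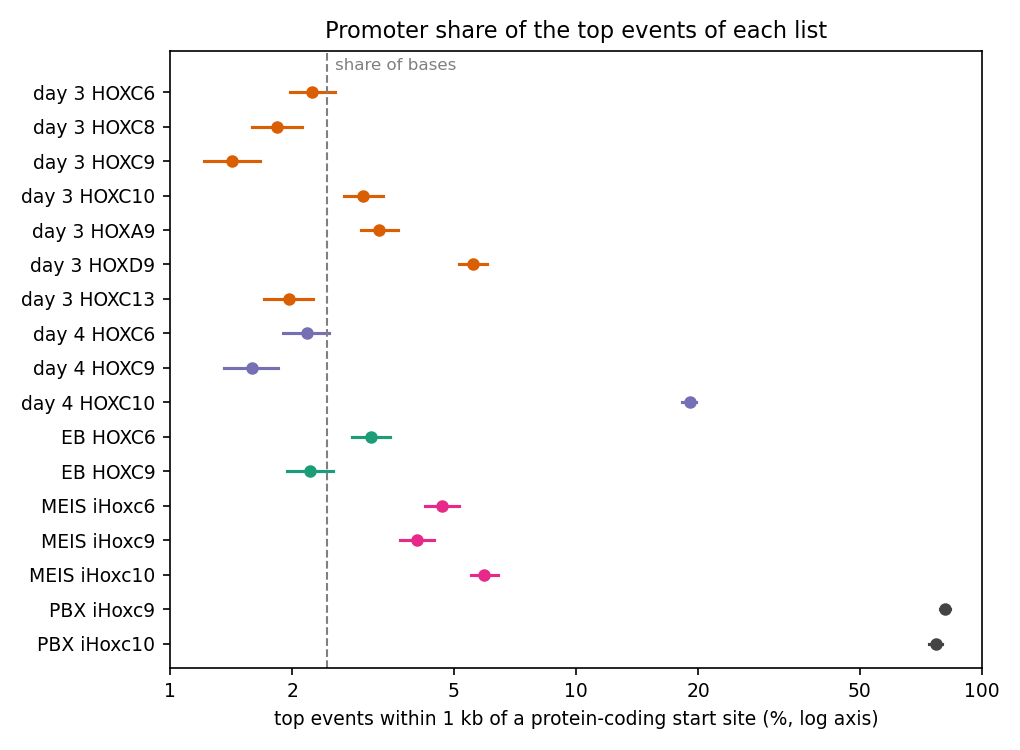
Share of the top events of each list (up to 10000, on chromosomes 1 to 19 and X) within 1 kb of a protein-coding start site, on a log axis, with 95% Wilson intervals for counting error. The dashed line is the share of bases, 2.43%. The 7 day 3 lists lie between 1.42 and 5.57%, day 4 HOXC10 at 19.1% and the PBX lists at 81.4 and 77.0%.

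In all 7 lists the promoter share was higher below rank 10000 than in the top 10000. The share of the remaining events was 12.9% for HOXC6 (1016 of 7900 events), 13.3% for HOXD9 (6165 of 46381), 6.59% for HOXA9, 5.06% for HOXC8, 4.52% for HOXC10, 3.13% for HOXC13 and 2.66% for HOXC9. Within the top 10000, HOXD9 went from 4.69% at ranks 1 to 2000 to 6.60% at ranks 8001 to 10000, while HOXC13 went from 1.52 to 2.45%. The limit of 10000 events thus leaves out most promoter events of each full list, and its read count differed between lists. The event at rank 10000 had 64.5 reads for HOXC6 and 345.9 for HOXC13. Just inside the limit lay Nkx1-1 for HOXC6 (64.6 reads) and Dcun1d3 for HOXD9 (148.6 reads), and just outside lay Lrrc3c (64.5 reads) and Ptch1 (148.3 reads). At the distance limit, a HOXC10 event 1000 bp from the start of 5730596B20Rik was the last inside and a HOXC6 event 1001 bp from that of Arfip1 the first outside, with 150 top events between 900 and 1000 bp and 134 between 1000 and 1100 bp.

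**Figure D2:**
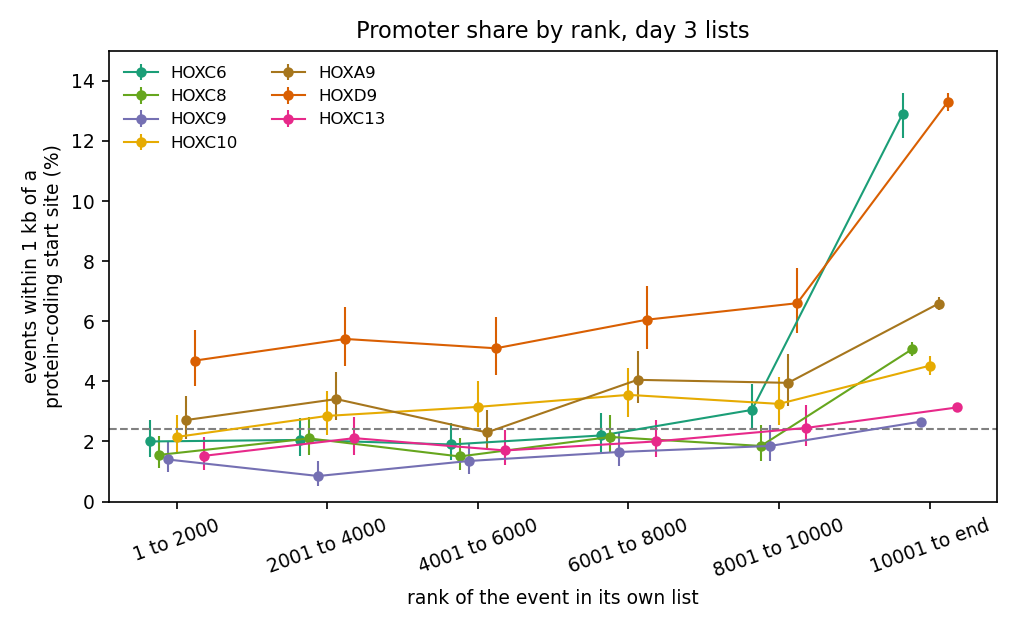
Share of events within 1 kb of a protein-coding start site by rank in the own day 3 list, with 95% Wilson intervals, and the share of bases as a dashed line. HOXD9 lies highest at every step to rank 10000, and HOXC6 goes from 3.05% at ranks 8001 to 10000 to 12.9% in the rest of its list.

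Promoter events had slightly fewer reads than other top events, by values that the choice used. The median log2 fold over control of HOXC6 was 3.83 at promoter events and 4.12 at other top events. HOXC9 had 6.43 and 6.74, and HOXD9 4.39 and 4.73. Estimated control reads, which the ranking did not use, were a little higher at promoters in every list. Their medians were 4.25 to 6.40 at promoter events and 4.10 to 5.60 at other top events, and 6.83 to 9.84% of promoter events had control reads in the highest 5% of their list. Whether this contributed to the promoter events was not tested. With those events left out, 897 regions remained.

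With the lists pooled, promoter events lay upstream of start sites in a larger share than bases did. Of the 1927 events, 349 (18.1%, 16.5 to 19.9%) lay within 100 bp of a start site, where 12.7% of the bases within 1 kb lie, and 1136 (59.0%, 56.7 to 61.1%) lay upstream, against 48.9% of bases. The steps from 200 to 100 bp and from 100 to 0 bp upstream held 12.8% and 11.3% of events against 5.32% and 6.28% of bases. The steps from 0 to 100 bp and from 800 to 900 bp downstream held 6.59% and 6.75% against 6.41% and 4.72%. HOXD9 stood closest to the start, with 23.4% of events within 100 bp and 64.2% upstream. HOXC13 had the lowest shares, with 9.23% (5.92 to 14.1%) within 100 bp, 47.7% (40.8 to 54.7%) upstream and 2.05% in the first 100 bp downstream. Its intervals within 100 bp and upstream overlapped those of HOXC6, HOXC8, HOXC9 and HOXC10. Of the HOXC13 events, 54.4% lay beyond 500 bp from the start site, against 28.6% (HOXD9) to 48.1% (HOXC8) for the other factors. In the annotation, 1000 of the 1927 events (51.9%) lay in introns, 357 (18.5%) in exons and 570 (29.6%) outside genes.

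**Figure D3:**
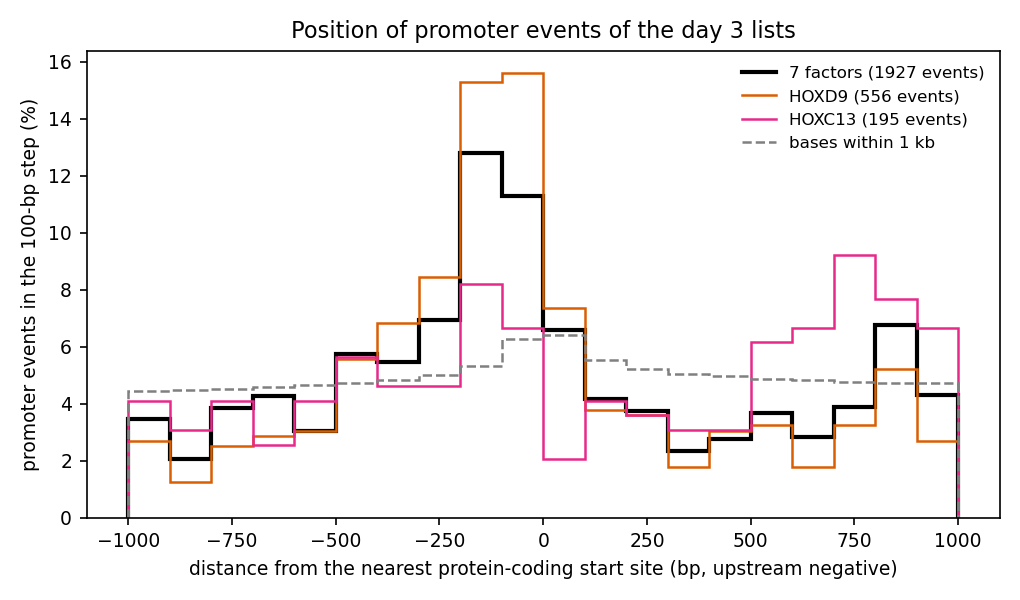
Share of promoter events in steps of 100 bp around the nearest protein-coding start site, upstream negative, for the 7 lists together (1927 events), HOXD9 (556) and HOXC13 (195), with the share of bases within 1 kb as a dashed line. HOXD9 reaches 15.6% in the 100 bp upstream of the start, and HOXC13 reaches 9.23% between 700 and 800 bp downstream.

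Most promoter regions were in the top list of 1 factor. Of the 943 regions, 507 (53.8%, 50.6 to 56.9%) had 1 factor, 186 had 2, 118 had 3, 56 had 4, 30 had 5, 35 had 6 and 11 (1.17%, 0.653 to 2.08%) had all 7. Over all 32209 merged regions, 52.8% had 1 factor and 0.876% had all 7, so promoters were close to that background on both counts. The leading combinations of 2 or more factors were HOXA9 with HOXD9 (77 regions), HOXC10 with HOXA9 and HOXD9 (65 regions), HOXC10 with HOXD9 (36 regions), all but HOXC13 (32 regions) and HOXC6 with HOXC8 (31 regions). These counts depend on the limit of 10000. Of the 507 regions with 1 factor, 425 (83.8%, 80.4 to 86.8%) also had an event of another day 3 factor in its full list, against 70.5% (69.8 to 71.2%) of the 16506 regions with 1 factor away from promoters. The mix of factors differs between these 2 sets.

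Of the promoter events of HOXA9, 86.9% (82.8 to 90.1%) had a HOXD9 top event within 100 bp, against 69.7% of its other top events. In the other direction, 50.9% of HOXD9 promoter events had a HOXA9 event, against 70.7% of its other top events. Of the HOXC9 promoter events, 66.9% had a HOXC10 event and 61.3% a HOXD9 event, against 45.9% and 40.9% of its other top events. In the other direction, 14.9% of HOXD9 promoter events had a HOXC9 event, against 41.1% elsewhere. HOXD9 had 556 promoter events and HOXC9 had 142, and this difference in number limits the share that can be reached. HOXC6 and HOXC8, which act at brachial levels, shared 56.2% (49.7 to 62.6%) of the HOXC6 and 69.9% of the HOXC8 promoter events. Of their other top events the shares were 68.4% (67.5 to 69.3%) and 70.5%. HOXC13 promoter events had events of the other factors in 7.18 to 18.5%, against 6.05 to 18.7% of its other top events. Over the 42 ordered pairs the share at promoters was lower than elsewhere in 18 and higher in 24, with medians of 32% and 41%. Taken within each pair, the median difference was 1.15 percentage points, with a range of -26.2 to 21.

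The 11 promoter regions with all 7 factors were those of Hoxc4, Hoxc5, Prdm13, Hoxa4, 5730596B20Rik, Krt222, Irx1, Gcnt2, Oacyl, Spag9 and Dct. Hoxc4, a cervical Hox gene, had at its region 2063.6 HOXC10 reads (rank 2 of its list), 4237.8 HOXC9 reads (rank 21), 3296.6 HOXA9 reads (rank 7) and 2010.5 HOXD9 reads (rank 11). HOXC8 had 1482.3, HOXC13 1579.5 and HOXC6 478.1 reads there. Reads are compared within a list by rank, since depth differs between lists, and the lowest rank of the 7 was that of HOXC13 (705). Hoxc5, the next gene of the cluster, had 4515.8 HOXA9 reads (rank 2), 3497.0 HOXC8 reads (rank 5), 1047.5 HOXC6 reads (rank 21), 1052.5 HOXC10 reads (rank 28), 1463.8 HOXD9 reads (rank 28), 3550.1 HOXC13 reads (rank 74) and 2907.9 HOXC9 reads (rank 86). Both regions thus ranked in the first 1000 of all 7 lists, and the sequences above show TAAT with TTTAT in the one and TAAT with TTTAC in the other.

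Prdm13, which encodes a transcriptional repressor of spinal interneuron specification, had 3285.0 HOXA9, 3120.6 HOXC9, 1758.1 HOXC8, 1479.5 HOXD9, 880.6 HOXC13, 818.2 HOXC6 and 385.0 HOXC10 reads. It ranked 8 for HOXA9 and 27 for HOXD9 but 834 for HOXC10 and 2335 for HOXC13. At Hoxa4 the ranks were 15 for HOXD9, 30 for HOXC8, 70 for HOXA9, 206 for HOXC10, 213 for HOXC13, 701 for HOXC9 and 944 for HOXC6. Irx1, a homeobox gene of neural patterning, had 641.0 HOXC10 reads (rank 182) and 638.8 HOXD9 reads (rank 373) but ranked 5466 for HOXC6 and 7567 for HOXC8. Gcnt2 encodes a glycosyltransferase and Dct an enzyme of melanin synthesis. Dct had 1293.5 HOXC13 reads (rank 1104) and ranked between 1843 and 7540 in the other 6 lists. Spag9, which encodes a scaffold of JNK signalling, ranked between 1455 (HOXC6) and 9576 (HOXC9). The regions of Hoxc4, Hoxc5 and Hoxa4 ranked in the first 1000 of every list, and each of the other 8 ranked below 1000 in at least 1 list.

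Hox genes were the gene list with the highest share of promoters. Of 39 Hox genes, 22 (56.4%, 41 to 70.7%) had a promoter region, against 865 of 21755 (3.98%) of all protein-coding genes. They held 41 of the 943 regions. Their clusters are dense, so 1 event can lie within 1 kb of a start while belonging to a neighbour. In paralogue groups 1 to 8, 17 of 23 genes (73.9%) had a region, and in groups 9 to 13, 5 of 16 (31.2%). Of the latter 5, Hoxa11, Hoxb13, Hoxc11 and Hoxc12 had a region with HOXC13 alone, and Hoxa9 had one with HOXC10, HOXA9 and HOXD9. In groups 1 to 8, HOXC13 was the only factor at Hoxa7. HOXC6, HOXC8 and HOXC9 had no promoter region in groups 9 to 13 and 10, 9 and 13 genes in groups 1 to 8. No Hoxd9 to Hoxd13 promoter, and none of Hoxc8, Hoxc9, Hoxc10 and Hoxc13, had a region.

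**Figure D4:**
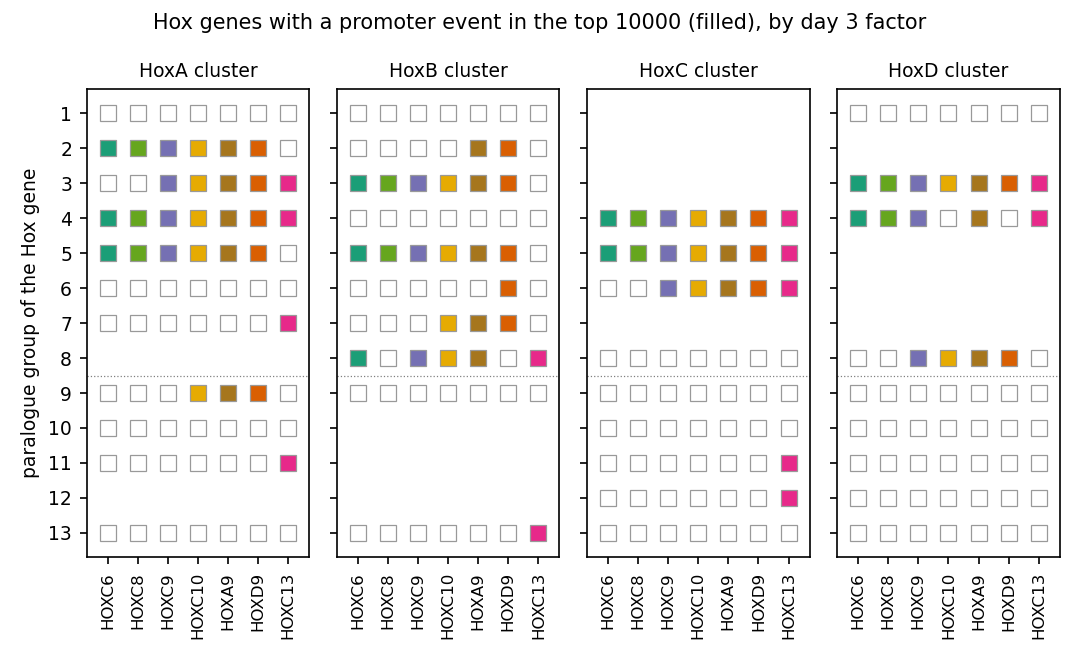
The 39 Hox genes by cluster and paralogue group, with a filled square for each day 3 factor that had a promoter event in its top 10000. HOXC13 is the only filled square at Hoxa7, Hoxa11, Hoxb13, Hoxc11 and Hoxc12. Of the 23 genes above the dotted line (groups 1 to 8), 17 have a filled square.

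The Hox regions held more factors than other promoter regions. Of these, 22 of 41 (53.7%) had 4 or more factors against 110 of 902 (12.2%). Their median of the best rank over factors was 1819 against 5528. The best rank is not a result separate from the number of factors. Over all promoter regions its median was 7316 with 1 factor, 3822 with 2 or 3 and 1448 with 4 to 6. Ranks and read counts were used to choose the regions, and those of some Hox regions are given as a description. Hoxa5 had 3 regions, and the one 163 bp downstream of its start had 975.8 HOXC10 reads (rank 42), 710.0 HOXD9 reads (rank 275), 777.8 HOXA9 reads (rank 610), 664.2 HOXC8 reads (rank 999), 179.0 HOXC6 reads (rank 2415) and 435.7 HOXC9 reads (rank 6429). HOXC13 had 113.9 reads there at rank 38568, outside its top list. Hoxb5 had 2 regions with all factors but HOXC13 in the top lists, with HOXD9 at rank 113 and HOXA9 at rank 279 in the one 134 bp upstream. Hoxd3 had 7 regions over its 5 coding start sites, all with HOXD9 and with 2 to 6 factors. The region 90 bp upstream of Hoxd3 had 929.9 HOXD9 reads (rank 116) and 1184.5 HOXA9 reads (rank 198) and no event in the full HOXC6 list.

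After Hoxc5, HOXC13 had its highest Hox promoter rank at Hoxb8. There, 116 bp upstream of the start, it had 3514.1 reads (rank 78), with HOXC9 at 1129.8 reads (rank 1124), HOXA9 at 210.7 (rank 8328) and HOXC10 at 105.3 (rank 9956), while HOXD9 lay outside its top list at rank 48971. At Hoxd4 it had 1665.9 reads (rank 616), with HOXC9 at rank 1021 and no event in the full HOXD9 list. At Hoxa11 it had 1357.1 reads (rank 995), at Hoxb13 641.0 (rank 4027), at Hoxc11 491.5 (rank 6129) and at Hoxc12 346.5 (rank 9990). None of these 4 regions had an event of any other full-length factor at day 3.

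Promoter regions were also counted over lists of genes of other pathways and cell types. Members of these lists and of the Hox clusters with under 3 factors, and members of the interneuron, axon guidance, endoderm and mesoderm, Wnt and histone lists, are named after their values were seen. Of 11 TALE cofactor genes, 4 (36.4%, 15.2 to 64.6%), namely Meis1, Meis2, Meis3 and Tgif1, had one, against 3.98% of all genes, and no Pbx or Pknox gene did. Tgif1, a TALE repressor, had 3 regions, and the one 117 bp upstream of a start had HOXD9 at 357.8 reads (rank 1733), HOXA9 at 366.3 (rank 3267), HOXC10 at 136.0 (rank 6758) and HOXC6 at 78.1 (rank 7807). Of 32 motor neuron and ventral progenitor factors, 6 (18.8%, 8.89 to 35.3%) had a region, namely Ebf3, Lhx4, Neurog2, Nkx6-1, Pax6 and Sox1, each with 1 or 2 factors. Of 20 motor column and pool genes only Tshz1 had one, with HOXC10, HOXA9 and HOXD9, and Foxp1 and Aldh1a2 had none. Control reads at the Tshz1 events were 13.8 to 15.2, and the list had no gene left without the highest 5% of control reads or with 1 start per gene. Dhrs3 and Rarb, of 20 genes of retinoic acid metabolism and signalling, had regions. At Rarb, which encodes a retinoic acid receptor, the region 381 bp downstream had HOXD9 at 415.6 reads (rank 1209), HOXA9 at 351.3 (rank 3517), HOXC10 at 164.2 (rank 4908), HOXC6 at 77.7 (rank 7851) and HOXC8 at 176.0 (rank 8533). At Dhrs3, a retinaldehyde reductase, HOXD9, HOXA9, HOXC10 and HOXC13 had 186.4, 210.0, 111.1 and 375.4 reads at ranks between 6693 and 9182.

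Hes3, Hes5 and Dll1 were the 3 of 26 Notch pathway genes with a region. Hes3, a repressor that maintains progenitors, had 3 factors, with HOXD9 at 312.0 reads (rank 2328), HOXA9 at 419.4 (rank 2510) and HOXC6 at 103.3 (rank 5451). Cdon was the only one of 15 sonic hedgehog pathway genes, with HOXD9, and was lost within 500 bp, with 1 start per gene, with the top 5000 events and without HOXD9. Fzd10 was the only one of 47 Wnt pathway genes. Of 18 spinal interneuron genes, 5 (27.8%, 12.5 to 50.9%) had a region, namely Bhlhe22, Foxd3, Lmx1b, Pax2 and Pax8. Foxd3 is also the 1 gene found in the list of 17 neural crest and glia genes. Among 69 axon guidance genes 5 had one (Efna3, Efnb2, Sema3c, Sema6a and Sema6d), with 2 when ranked by log2 q and 1 with 1 start per gene. Within 500 bp of a start site the counts were 3 motor neuron and 1 interneuron gene. Among 19 endoderm and mesoderm genes Hand2 and Ttr had a region. None of 13 caudal axis genes, 19 pluripotency genes or 25 cyclin and CDK genes had one, where the upper limits of the Wilson intervals were 22.8%, 16.8% and 13.3%. These limits all exceed the 3.98% of all genes, so a share near that of all genes could not have been told from 0. Cytosolic ribosomal protein genes had 3 of 80 and clustered protocadherins 1 of 57. Numbered zinc finger genes had 24 of 391 (6.14%, 4.16 to 8.97%).

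Histone genes had 9 of 71 (12.7%, 6.81 to 22.4%), and 8 of the 9 were with HOXD9. They shared 8 regions, since neighbouring histone genes share a promoter, and their values are uncertain, because histone genes have near-identical copies and only reads with 1 best place were kept. The genes were Hist1h1a, Hist1h2ae, Hist1h2an, Hist1h2be, Hist1h2bg, Hist1h2bp, Hist1h3a and Hist2h2ab with HOXD9, of which Hist1h2be also had HOXA9, and Hist1h4j with HOXC13. Without the HOXD9 list, Hist1h2be and Hist1h4j remained. Elavl4, which encodes an RNA-binding protein of neurons and was named after its values were seen, had the most regions of any gene, 8 near its 7 start sites, between positions 110285626 and 110293318 of chromosome 4. Of the 8, 6 had HOXD9, 5 had HOXC10, 4 had HOXA9 and none had HOXC13.

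The regions with 1 factor came mainly from HOXD9 and HOXC13, and these 2 sets differed in their sequence and in their company. HOXD9 was the only factor in 207 of its 549 regions (37.7%, 33.7 to 41.8%) and HOXC13 in 137 of its 187 (73.3%, 66.5 to 79.1%), against 5.59 to 26.3% for the other 5 factors. Away from promoters the share of events with no other factor was 11.6% for HOXD9 and 76.1% for HOXC13. When the full lists were used, only 3 of the 207 HOXD9 regions had no event of another day 3 factor, and 69 of the 137 HOXC13 regions did. Of 82 regions of this kind in all, 69 were therefore HOXC13, 4 each were HOXC6 and HOXC8, 3 HOXD9 and 2 HOXC9.

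The regions with HOXC13 alone had a median GC of 38.6% over 101 bases, and 134 of 137 (97.8%, 93.8 to 99.3%) held TAAT, TTTAT or TTTAC. A MEIS event lay within 100 bp of 3 of them (2.19%, 0.747 to 6.24%). MEIS was mapped in iHoxc6, iHoxc9 and iHoxc10 cells only, so no MEIS share here comes from iHoxc13 or iHoxd9 cells. The regions with HOXD9 alone had a median GC of 50.5%, held one of these strings in 74.9% (68.6 to 80.3%), and 108 of 207 (52.2%, 45.4 to 58.9%) had a MEIS event. Their median control reads were 4.90 and 5.30. The HOXC13 events without another factor away from promoters had MEIS in 2.07% and those of HOXD9 in 56.8%, so this contrast was not particular to promoters. The lowest shares with a HOX string were those of regions with HOXC6 alone (62.7%, 50.0 to 73.9%) and HOXD9 alone, and 18.6% of the former had a MEIS event.

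**Figure D5:**
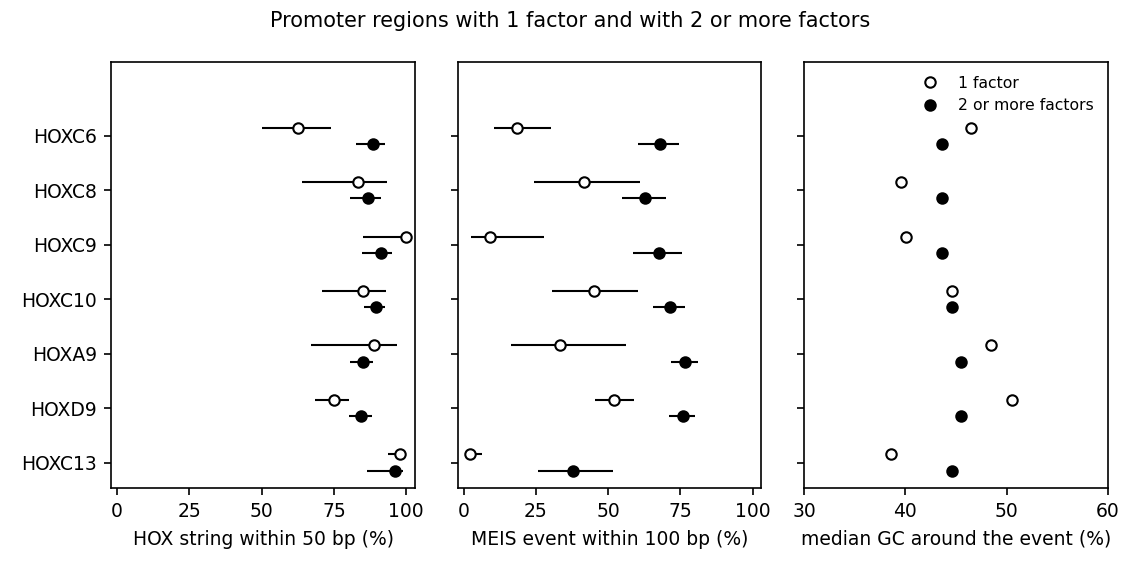
Promoter regions with 1 factor (open circles) and with 2 or more (filled circles) by day 3 factor. MEIS was mapped in iHoxc6, iHoxc9 and iHoxc10 cells only. The panels show the share with TAAT, TTTAT or TTTAC within 50 bp of the event, the share with a MEIS event within 100 bp (both with 95% Wilson intervals) and the median GC of 101 bases, where HOXC13 alone is lowest with 38.6% and HOXD9 alone highest with 50.5%.

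The leading HOXC13 promoters without another factor were Mttp, Krt83 and Hoxa11. Mttp, a lipid transfer protein of liver and gut, had 1931.9 HOXC13 reads over 4.3 control reads (rank 440). It had no event in any day 4, EB, MEIS or PBX list, none of which came from iHoxc13 cells. Krt83, a hair keratin, had 1429.3 reads (rank 883). HOXC13 is known for its role in hair, and these cells express it from a transgene. The leading HOXD9 promoters of this kind were Rack1 (205.3 reads, rank 5556), Osbpl9 (203.2 reads, rank 5662) and the start shared by Tom1l2 and Drc3 (190.3 reads, rank 6418). They are ranked lower in their list than those of HOXC13, and each also had an event in at least 1 list of another stage or cofactor. Those of HOXC6 were Tmem140, Ubap1l and the start shared by Sprtn and Exoc8 (82.6, 72.1 and 70.0 reads). Those of HOXC8 were Lmx1b (321.0 reads), Iqcj and Ubap1l, and HOXC9 led at C6 (675.5 reads). At Ubap1l the HOXC6 and HOXC8 events lay just over 100 bp apart and were therefore not merged. HOXC10 and HOXA9 had none.

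Of the HOX strings, TAAT and TTTAT were less frequent at promoter events than at other top events, with the lists pooled. TAAT was within 50 bp of 63.1% (60.9 to 65.2%) of promoter events and 73.5% of other top events, where all top events had 73.2%, and TTTAT was within 50 bp of 52.3% and 56.6% (all: 56.5%). TTTAC, with 28.5% and 27.8% (all: 27.9%), TGATTTAT, with 6.85% and 5.74% (all: 5.77%), TGACAG, with 13.3% and 12.1% (all: 12.1%), and CAGCTG, with 8.56% and 9.59% (all: 9.56%), differed by under 1.5 percentage points between the 2 sets. The bases around promoter events differ too. Windows 1 kb to either side held TAAT in 41.2% at promoters and 51.9% elsewhere. After these shares were subtracted, the TAAT difference of -10.4 percentage points became 0.30 and the TTTAT difference of -4.34 became 2.77. The TTTAC difference went from 0.70 to 3.48 and that of CAGCTG from -1.03 to -2.27. The same strings are found within 50 bp of 19% (TAAT), 12.3% (TTTAT), 8.62% (TTTAC), 0.178% (TGATTTAT), 6.42% (TGACAG) and 6.72% (CAGCTG) of all 54050 annotated coding start sites. Promoter events lay a median of 363 bp from a start, however. At 500 bp upstream and downstream of the same start sites the shares were 39.6% and 32.7% for TAAT, 23.7% and 18.3% for TTTAT, and 16.5% and 13.7% for TTTAC.

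By factor, HOXD9 had the lowest share of promoter events with TAAT (53.6%, 49.4 to 57.7%, against 69.5% of its other top events), and HOXC8 (74.3%) and HOXC9 (73.9%) the highest. The TTTAT difference between promoter and other top events was -7.19 percentage points for HOXA9 and -6.38 for HOXD9. For the remaining factors it lay between -1.31 (HOXC9) and 1.33 (HOXC8). TTTAT was in 80.5% (74.4 to 85.5%) of HOXC13 and 38.8% (32.7 to 45.4%) of HOXC6 promoter events, and TTTAC in 52.8% and 16.5%. These are near the shares of the same factor elsewhere, which were 80.9% and 40.0% for TTTAT and 49.7% and 18.6% for TTTAC. TGATTTAT was in 8.63 to 8.84% of HOXD9, HOXC10 and HOXA9 promoter events and in 2.05% of those of HOXC13. Any of TAAT, TTTAT and TTTAC was in 97.4% of HOXC13 and 80.6% of HOXD9 promoter events. The median GC of the 101 bases was 44.6% at promoter events and 41.6% at other top events, against 59.4% at start sites themselves and 46.5% in the flanks of promoter events. At 500 bp upstream and downstream of start sites it was 47.5% and 51.5%. A GC of 60% or more was found at 95 promoter events (4.93%), 50 of them of HOXD9, and at 0.544% of other top events.

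Most promoter events at day 3 were also in the list of the same factor at day 4. For HOXC6 this held for 214 of 224 (95.5%, 92.0 to 97.6%), against 99.0% of all its top events. For HOXC9 it held for 134 of 142 (94.4%, 89.3 to 97.1%), against 94.2%, and for HOXC10 for 243 of 299 (81.3%, 76.5 to 85.3%), against 74.5%. The EB lists held fewer. HOXC6 promoter events were in the EB HOXC6 list in 67 of 224 (29.9%, 24.3 to 36.2%), against 22.1% of all its top events, and HOXC9 promoter events in the EB HOXC9 list in 108 of 142 (76.1%, 68.4 to 82.3%), against 68.6%. The EB HOXC9 list holds 128388 events and the EB HOXC6 list 44751, so the 2 shares are not comparable. With both cut to their top 10000, they were 12.5% and 23.9%, against 7.71% and 17.3% of other top events. With the full EB lists, the difference between promoter and other top events was 7.95 percentage points for HOXC6 and 7.58 for HOXC9. Pooled over both factors it was 2.50, below both, because HOXC6, with the lower shares, supplied more of the promoter events (224 against 142). This pooled value changed sign to -2.10 when events were ranked by log2 q, and the difference within each factor was not computed under that ranking.

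MEIS events lay within 100 bp of 84 of 224 (37.5%, 31.4 to 44.0%) HOXC6, 80 of 142 (56.3%, 48.1 to 64.2%) HOXC9 and 141 of 299 (47.2%, 41.6 to 52.8%) HOXC10 promoter events in cells that expressed the same factor, though mostly from another line. Over all top events of these factors the shares were 34.1%, 48.6% and 42.2%. With only 1 start site per gene the pooled difference between promoter and other events changed sign, from 4.32 to -0.48 percentage points. PBX events were scarce. They lay at 2 of 142 (1.41%, 0.387 to 4.99%) HOXC9 and 2 of 299 (0.669%, 0.184 to 2.41%) HOXC10 promoter events, against 0.280% and 0.110% of all top events. Most events of both PBX lists lay at promoters, so a higher PBX share there is not particular to HOX events. With the distance to the start site cut to 500 bp the sign of the pooled PBX difference changed, to -0.20.

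Over the 943 regions, 739 (78.4%) had an event in 1 or more of the 3 day 4 lists, against 79.6% of all 32209 merged regions, and 430 (45.6%) in an EB list, against 45.6%. A MEIS list held an event at 455 (48.3%, 45.1 to 51.4%), against 36.7% of all regions, and a PBX list at 20 (2.12%, 1.38 to 3.25%), against 0.211%. Of all PBX events, 81.4% in iHoxc9 and 77.0% in iHoxc10 cells lay at promoters, so the PBX contrast is not particular to HOX regions. The study reports that its PBX antibody gave a weak signal. MEIS was present in all 3 lines at 142 regions. The share with MEIS was 31.2% at regions with 1 factor, 65.5% with 2 or 3, 72.7% with 4 to 6 and 10 of 11 with all 7. Away from promoters it was 17.8%, 46.2%, 74.4% and 88.9%. The day 4 share was 62.7%, 95.1% and 100% in the first 3 of these classes, and 63.0%, 97.1% and 99.8% away from promoters. Day 4 and MEIS lists come only from cells with HOXC6, HOXC9 or HOXC10 induced. Regions with more factors more often hold 1 of these, so a rise over the classes is partly built in. The mix of factors differs, as HOXC13 alone made up 137 of 507 promoter regions with 1 factor and 7184 of 16506 elsewhere. For events without another factor, MEIS shares at promoters and elsewhere were 18.6 and 17.7% (HOXC6), 46.2 and 24.8% (HOXC8) and 9.09 and 19.4% (HOXC9). They were 43.6 and 40.5% (HOXC10), 33.3 and 37.7% (HOXA9), 52.4 and 56.8% (HOXD9) and 2.10 and 2.07% (HOXC13). For events with another factor, the MEIS share was higher at promoters for all but HOXC13. The intervals were apart only for HOXC6 (67.3 and 55.8%) and HOXA9 (76.8 and 68.2%). None of these 10 lists had an event at 101 regions (10.7%, 8.89 to 12.8%), against 13% of regions away from promoters. Of the 101, 58 had HOXC13 alone and 25 had HOXD9 alone. None of the 10 lists came from iHoxc8, iHoxa9, iHoxd9 or iHoxc13 cells. Regions with 1 of those factors alone therefore had no list of their own factor among the 10. Hoxa4 and Oacyl were in 16 of the 17 HOX, MEIS and PBX lists, the most of all regions. Hoxa4 had 4180.4 reads in the EB HOXC9 list (rank 225), over 52.7 control reads, and 255.2 MEIS reads in iHoxc9 cells. Of the 17 lists only PBX in iHoxc10 cells had no event there. A further 12 regions were in 15 lists, of which those with the best median day 3 ranks, at Hoxc4, Prdm13 and 5730596B20Rik, lacked only the 2 of PBX.

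The 4 chimera lists, of proteins in which the homeodomain and C-terminus were exchanged between HOXC10 and HOXC13, were compared at the same promoters. Of the regions with HOXC13 alone, 59.9% (51.5 to 67.7%) had an event of HOXC10:C13.2 and 41.6% of HOXC10:C13.1, which carry the homeodomain of HOXC13. Away from promoters these shares were 52.3% and 32.7%. Of the same promoter regions 54.7% and 37.2% had one of HOXC13:C10.1 and HOXC13:C10.2, which carry that of HOXC10, against 54.0% and 28.2% away from promoters. The chimera lists hold 61482 to 99311 events. Of the 40 regions with HOXC10 alone, all had an event of HOXC13:C10.2, against 97.8% away from promoters. HOXC10:C13.1 and HOXC10:C13.2 each had an event at 25.0% (14.2 to 40.2%) of them, against 25.7% and 24.4%. At Hoxa7, whose only top list at day 3 was HOXC13 (523.2 reads, rank 5586), HOXC10:C13.1 had 2473.7 reads (rank 17) and HOXC10:C13.2 2566.5 (rank 18).

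Day 4 HOXC10 stood apart from the other HOX lists in its promoter share. Of its top 10000 events 1905 (19.1%, 18.3 to 19.8%) were at promoters, against 2.99% for the same factor at day 3 and 2.17% and 1.59% for day 4 HOXC6 and HOXC9. Its promoter events had a median GC of 62.4%, 20.1% held TAAT and 47.2% lay within 100 bp of a start site. The day 3 HOXC10 promoter events had 44.6%, 69.6% and 15.1%. Only 314 (16.5%) of the 1905 had an event in the full day 3 HOXC10 list. Their median log2 fold over control was 2.71, against 6.98 and 6.51 at the promoter events of day 4 HOXC6 and HOXC9, and the signal fraction of the 4 libraries was 0.047 to 0.056, against 0.140 to 0.311 for day 4 HOXC6 and HOXC9. The part of this signal fraction in the promoter share was not tested.

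Most PBX events lay at promoters, with 948 of 1164 events (81.4%, 79.1 to 83.6%) in iHoxc9 and 653 of 848 (77.0%, 74.1 to 79.7%) in iHoxc10 cells, at a signal fraction of 0.008 to 0.009. Their promoter events had a median GC of 63.4% and 64.4%, and 11.8% and 9.34% held TAAT. In the day 4 HOXC10 list 60.3% and 65.7% of them had an event, and in the day 3 HOXC10 list 0.949% and 1.38%. The day 4 HOX lists and both PBX lists were called against a control of 4.72 M reads. The day 4 HOXC10 and PBX promoter events were thus near each other in GC and in position, where 46.5% and 46.4% of the PBX events lay within 100 bp of a start site. The MEIS lists had 4.06 to 5.95% of their top events at promoters, with a median GC of 48.5 to 49.5%.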

How the data were processed

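The 42 samples of 23 groups gave 21 event lists and 2 controls. The authors aligned reads to mm10 with Bowtie (1.0.1), kept only reads with a single best place, and called events with MultiGPS over the replicates of a list against a control at a q-value threshold of 0.001. Picard (2.8.2) and edgeR (3.22.5) are named in the submitters' processing notes. The deposited lists give, per event and list, the estimated count of ChIP reads (the expected counts used here for ranking), the estimated count in the scaled control, a log2 fold over control and a log2 q-value, all made by the authors from pooled libraries. Columns of the authors' comparisons between lists hold log2 levels, folds and p-values and were not used, nor were the BED files.

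Events were ranked by ChIP reads within a list, those off chromosomes 1 to 19 and X were left out after ranking, and distances were taken to the 54050 starts of protein-coding transcripts of protein-coding genes (GENCODE release 21 for mouse, 21755 genes). Lists shared an event within 100 bp. Strings were searched in 101 bases around each event and 1 kb to either side. Intervals are 95% Wilson intervals. Depth was 5.04 to 31.02 M reads in the 15 day 3 libraries of full-length factors. The rule for named genes took regions with all 7 factors by median rank, the 3 with the most reads of each factor and no event of the other 6 full lists, those with 3 or more factors in 8 of the 19 gene lists (Hox, TALE, motor neuron, motor column, retinoic acid, sonic hedgehog, Notch and caudal), the 5 regions in the most lists, and those beside the thresholds. Other genes are named as chosen after their values were seen. A region that the rule takes is not reported here. The members and lists were chosen with earlier results of these data known. Scripts ran in Python 3.11.15 with numpy 2.4.6, pandas 2.3.3, scipy 1.17.1 and matplotlib 3.10.9 and were tested on simulated events. Alternatives changed the ranking, the number of events, the annotation, the distances, the merging and the string window.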

Additional observations from a re-analysis of the deposited data

How the results depend on the processing

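No paired analysis was possible because the lists pool their libraries, and for the same reason no replicate could be left out. Over 16 comparison results, 145 of 189 values under alternatives stayed within the interval of the reported value or, for counts, within 1.5 times of it, 40 moved further and 4 reversed a difference whose interval excluded 0. The sign changed in 12 of the 189, and 6 of these stayed within the interval, namely EB (-2.10, ranked by log2 q), TGACAG (-0.151 with the top 5000 and -0.0422 in a 100 bp window), TTTAC (-0.0677 within 500 bp and -1.08 in a 100 bp window) and CAGCTG (0.0976 within 500 bp). Differences below are promoter minus other top events, in percentage points. All pooled differences sum the events of several factors, so a factor with more promoter events weighs more on the promoter side. By factor, the day 4 difference was -3.58 (HOXC6), 0.169 (HOXC9) and 6.93 (HOXC10), and the EB difference was 7.95 (HOXC6) and 7.58 (HOXC9). The median overlap difference over the 42 ordered pairs was 1.15, against -3.28 pooled. Ranking by log2 q gave a day 4 difference of -3.57 (from -0.403), and cutting the day 4 list to its top 10000 gave 2.49. With the top 5000 events there were 449 regions, 4 with all 7 factors and 261 with 1, at 412 genes, with a promoter share of 2.50% and differences of -8.20 for TAAT, -1.84 for TTTAT and 3.54 for TTTAC. With 1 start per gene there were 580 regions, 7 with all factors and 332 with 1, a share of 1.59%, a MEIS difference reversed to -0.484, an overlap difference of -6.43 (from -3.28), and -15.1 for TAAT and 1.25 for CAGCTG. With the starts of all transcripts, 17 regions had all factors, the share was 3.99% and the overlap difference -1.88. Within 500 bp of the start there were 580 regions, 7 with all factors and 305 with 1, at 548 genes, with a share of 1.70%, a PBX difference reversed to -0.198 and 3.08 for TGACAG. Sharing within 50 bp gave a PBX difference of 0.135, and within 200 bp an overlap difference of -4.29. String windows of 25 bp gave -4.38 for TAAT and -1.04 for TTTAT, and of 100 bp -6.83 for TTTAT. With the flank share subtracted, TAAT reversed to 0.303 and TTTAT to 2.77, TTTAC was 3.48 and CAGCTG -2.27. The following were added after seeing the data. Without HOXD9 the share was 2.29%, the overlap difference -1.62 and TAAT -7.16. Without HOXC13, 43 regions had all of the other 6 factors, the share was 2.89% and the overlap difference -6.29. Without HOXC10 the overlap difference was -5.03. Apart from fewer events, start sites or lists where those were cut, the cause was not tested. Among the results for single lists, 57 of 295 values moved and none of these reversed. Depth limits the lists unevenly, since the reads at rank 10000 and the lengths of the lists differ, and the 1 library of each PBX and MEIS list has no repeat.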
